A study of Homo sapiens with 4 samples.

Results

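The retinoic acid genes CYP26A1, CYP26B1, ALDH1A1, ALDH1A2, ALDH1A3, RARA, RARB, RARG and CRABP2, 9 in all, were measured in human lung adenocarcinoma cells on 1-colour Affymetrix arrays. They were chosen by name, as every probe set (a group of probes read as 1 value) that the platform annotation gives to one of these genes alone. This gave 22 probe sets, out of 41038 that named 19740 genes. The 4 groups had 1 array each and no replicate. They were CL1-5 cells with a short hairpin RNA against PSAT1, CL1-5 cells with a non-silencing hairpin, CL1-0 cells with a PSAT1 expression vector, and CL1-0 cells with the control vector. CL1-5 is the more invasive line and was derived from CL1-0 by selection. Per the labels, all cells were stably transduced and had 2 weeks of puromycin. The labels do not say whether the cells were clones or pools, or which promoter drove the constructs. PSAT1 makes phosphoserine in serine synthesis.

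Retinoic acid is made in cells from vitamin A. Retinol is first oxidised to retinal, and aldehyde dehydrogenases of the ALDH1A family then oxidise retinal to retinoic acid. Inside the cell CRABP2 carries retinoic acid to the nucleus, where receptors of the RAR family, paired with RXR proteins, bind DNA and switch genes on or off. Cytochrome P450 enzymes of the CYP26 family hydroxylate retinoic acid and so clear it. CYP26A1 and RARB are textbook targets of the receptors themselves, so that retinoic acid raises its own breakdown and its own receptor.

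The sequences that carry this feedback are shown because CYP26A1 and RARB behaved differently in these cells. RAR and RXR pairs bind 2 copies of a core motif in the same orientation and 5 bases apart, an arrangement called DR5. The consensus spelling of the core motif is AGGTCA. Also accepted were the spelling AGTTCA, which stands in both genes, and the spelling GGTTCA, which stands in RARB. The last spelling searched for was GGGTCA. Both strands were searched, in windows of 250 bases before to 50 bases after each RefSeq transcript start (GRCh38.p14). The 9 genes matched 16 such windows. Of these, 2 held a DR5, 1 in CYP26A1 and 1 in RARB. Both genes were known targets and the spellings were chosen to include theirs, so these matches were fixed by the choice and are no finding. Of all 35116 windows 31 held one (0.0883%). A single core motif is common, and stood in 7 of the 16 windows and in 38.6% of all windows. The pair with a spacing of 2 bases, DR2, stood in 0 of the 16 and in 14 of all 35116 windows (0.0399%), so that a count of 0 is near the background. The CYP26A1 window is chr10:93073643-93073942 and the RARB window chr3:25428013-25428312, both on the plus strand. The capitals mark the core motifs of the DR5, which in CYP26A1 lies on the strand opposite to the gene.
CYP26A1: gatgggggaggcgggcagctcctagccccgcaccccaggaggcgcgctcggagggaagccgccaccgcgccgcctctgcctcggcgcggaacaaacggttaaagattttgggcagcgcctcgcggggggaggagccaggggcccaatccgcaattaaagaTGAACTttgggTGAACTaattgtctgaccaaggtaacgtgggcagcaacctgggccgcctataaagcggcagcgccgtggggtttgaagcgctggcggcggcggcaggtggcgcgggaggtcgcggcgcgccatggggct
RARB: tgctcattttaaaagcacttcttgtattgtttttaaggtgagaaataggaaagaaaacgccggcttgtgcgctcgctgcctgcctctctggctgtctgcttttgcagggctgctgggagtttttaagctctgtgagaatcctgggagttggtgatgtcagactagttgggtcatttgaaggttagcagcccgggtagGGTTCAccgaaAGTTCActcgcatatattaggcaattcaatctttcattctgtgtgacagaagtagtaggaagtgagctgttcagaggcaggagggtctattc
The DR5 spans 90 to 74 bases before the start in CYP26A1 and reads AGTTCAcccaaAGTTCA on its own strand. In RARB it spans 53 to 37 bases before the start and reads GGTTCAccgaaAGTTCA. A match is a run of letters and not a measurement of binding, and the probe sets do not show which start a transcript used.

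Signals were compared after values below 49.0, the pooled median of all 4 arrays, were set to that floor, which stands in for detection calls. A ratio with 1 array at the floor is a bound and is given as "at least". "Higher", "lower", "rose" and "fell" mean a change of at least 2-fold from one array to the other, with no test behind it. Of the 22 probe sets, 9 were above the floor on all arrays, 7 on some and 6 on none. The 6 were 1 each of ALDH1A2, ALDH1A3, RARA and RARG and 2 of RARB, and they read 8.42 to 44.5. The arrays of CL1-0 were brighter than those of CL1-5, with medians of 53.2 on both CL1-0 arrays against 45.4 to 46.0 on the CL1-5 arrays. PSAT1 itself checked the labels in CL1-5, where its brighter probe set was 12.3-fold lower, at 143 with the hairpin and 1760.0 without, and its second probe set 3.58-fold lower. In CL1-0 the brighter one read 5494 with the PSAT1 vector and 4214 with the control vector (1.30-fold), and the second 1617 with the PSAT1 vector and 1509 with the control vector (1.07-fold). Neither passed 2-fold there, and where the probes lie relative to the introduced sequence is not known here. The labelled cell type, type II alveolar, was set against its markers. Of 9 with a probe set, 7 were above the floor on every array, SFTPD and SLC34A2 were below the floor on all 4 arrays, and the surfactant gene SFTPC read 131 to 151, below the 75th percentile of the arrays (212.6). The epithelial genes EPCAM, CDH1 and KRT19 were also below the floor on all 4 arrays. Of 5 immune markers, CSF1R passed the floor on 1 array and the others on none.

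**Figure D1:**
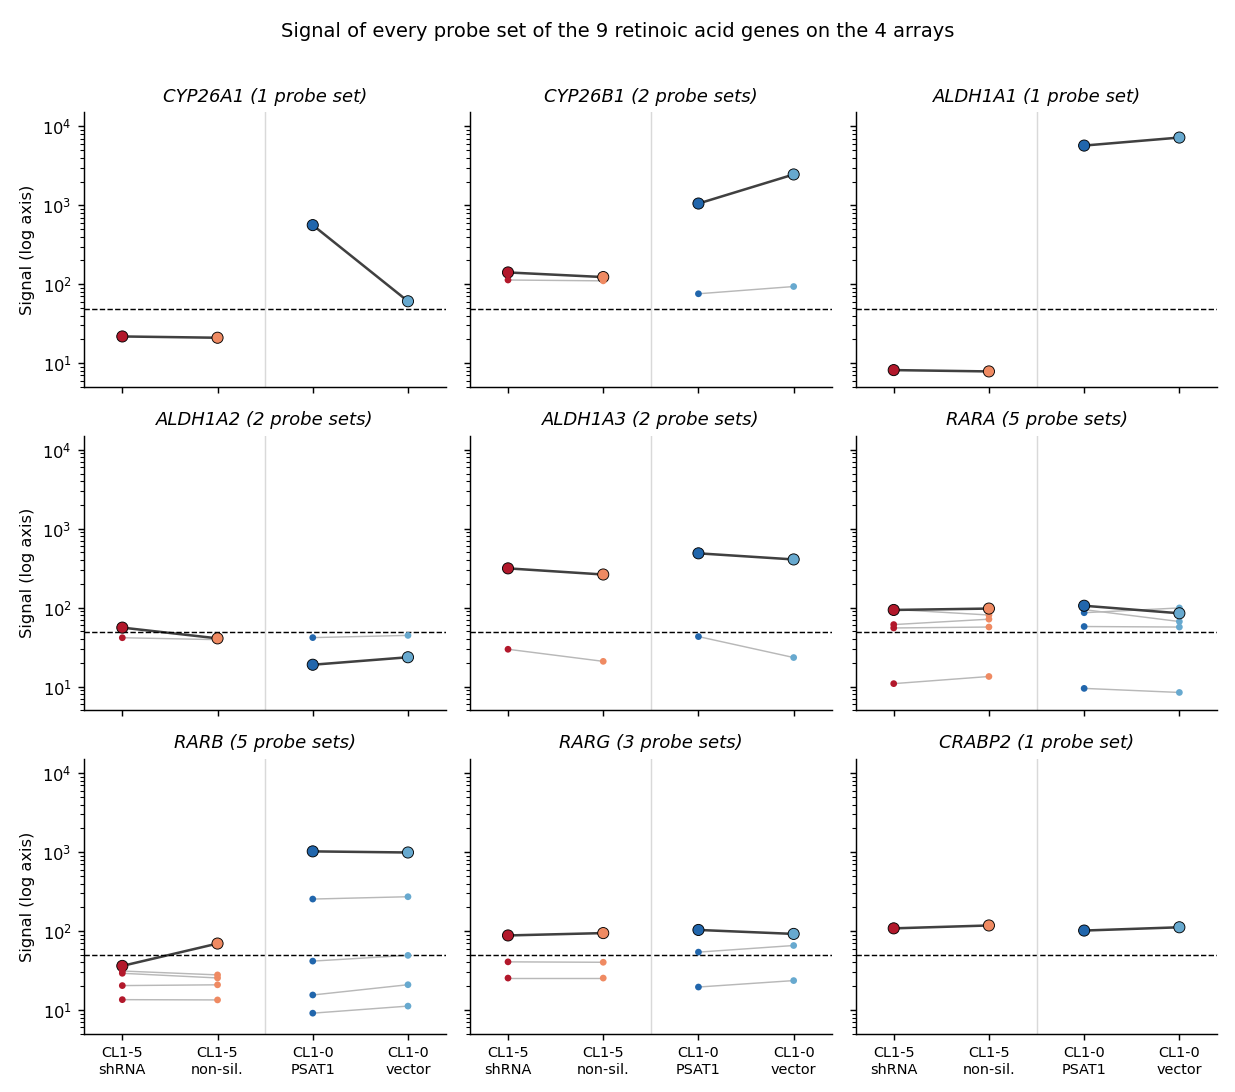
Signal (log axis) of each probe set of the 9 genes on the 4 arrays, 1 panel a gene. Large outlined points are the probe set that represents the gene, small points the others, lines join the 2 arrays of a line, and the dashed line is the floor of 49.0. ALDH1A1, RARB and the main CYP26B1 probe set are bright in CL1-0 and dim in CL1-5, and CYP26A1 is bright on the CL1-0 PSAT1 array only.

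In CL1-0 with PSAT1, the retinoic acid breakdown enzymes moved in opposite directions, CYP26A1 up and CYP26B1 down, while the measured enzymes of synthesis, the receptors and CRABP2 stayed under 2-fold. CYP26A1, the hydroxylase most closely tied to retinoic acid feedback, read 561 with PSAT1 and 60.8 with vector, a 9.23-fold rise (log2 ratio 3.21). It was the fourth highest ratio of 13187 genes measured in this pair. Among the 500 genes nearest in signal, 1 had a ratio as high, and the central 95% of their log2 ratios ran from -0.75 to 1.23. CYP26A1 has 1 probe set, so no second one bears on this value, and the vector array lay just above the floor. CYP26B1, the sister enzyme, read 1053 with PSAT1 and 2460.0 with vector, a 2.34-fold fall (log2 ratio -1.22). Of its 500 neighbours in signal 1 had a ratio as low. Its second probe set read 75.7 with PSAT1 and 93.5 with vector (log2 ratio -0.30), the same direction but under 2-fold. Probe sets that share a gene disagreed with an SD of 0.29 in log2 ratio in this pair, so the gap between these 2 was larger than usual.

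The enzymes that make retinoic acid differed little between the CL1-0 arrays. ALDH1A1, a retinal dehydrogenase also used as a marker of stem-like tumour cells, read 5714 with PSAT1 and 7219 with vector (log2 ratio -0.34). ALDH1A3 read 488 with PSAT1 and 408 with vector (log2 ratio 0.26). Its second probe set was below the floor on all 4 arrays, at 43.0 with PSAT1 and 23.3 with vector. ALDH1A2 was below the floor on both CL1-0 arrays with both of its probe sets, so it was not measured there. These differences are of the size of the disagreement between probe sets of 1 gene.

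Among the receptors, RARB, the retinoic acid-induced one, read 1022 with PSAT1 and 989.7 with vector (log2 ratio 0.05). A second RARB probe set read 254 with PSAT1 and 272 with vector (log2 ratio -0.10), and another passed the floor on the vector array alone, at 49.2. The genes with a DR5 window shown above therefore differed in this pair, 9.23-fold for CYP26A1 against 1.03-fold for RARB. RARA, expressed in most tissues, had 4 probe sets above the floor. Their log2 ratios ran from -0.20 to 0.50, with both signs, and the representing one read 106 with PSAT1 and 84.8 with vector. RARG read 103 with PSAT1 and 92.0 with vector, and its second probe set 54.1 with PSAT1 and 65.6 with vector. With vector, the representing probe sets of RARA and RARG read less than 2 times the floor, so a 2-fold fall could not be called for them. CRABP2, the carrier, read 101 with PSAT1 and 112 with vector. Of these values, the log2 ratios of 0.32 and 0.50 of a pair of RARA probe sets lay beyond the SD between probe sets of a gene, and the other RARA probe sets, at 0.02 and -0.20, did not.

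In this pair 2 of the 8 measured members passed 2-fold, 1 higher and 1 lower. Of all 13187 measured genes 3.56% passed it, 2.56% higher and 1.01% lower. The median log2 ratio was 0.11 over the members and -0.01 over all genes. Averaging the probe sets of a gene took CYP26B1 under 2-fold (log2 ratio -0.76). Of 8 fibroblast markers, 4 were above the floor with PSAT1 and 5 with vector, and 2 passed 2-fold, both lower. POSTN, a matrix protein, read 118 with PSAT1 and 2154 with vector, and COL3A1, a collagen, was at least 6.37-fold lower. COL1A1, THY1 and PDGFRB were under 2-fold (log2 ratios -0.22, -0.33 and -0.17), and COL1A2, DCN and LUM were below the floor on all 4 arrays. The signals of the 8 summed to 552 with PSAT1 and 2933 with vector, a gap carried mostly by POSTN. Their part in the CYP26 values was not tested. In bulk RNA, fewer cells that express a gene and less RNA per cell cannot be told apart.

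**Figure D2:**
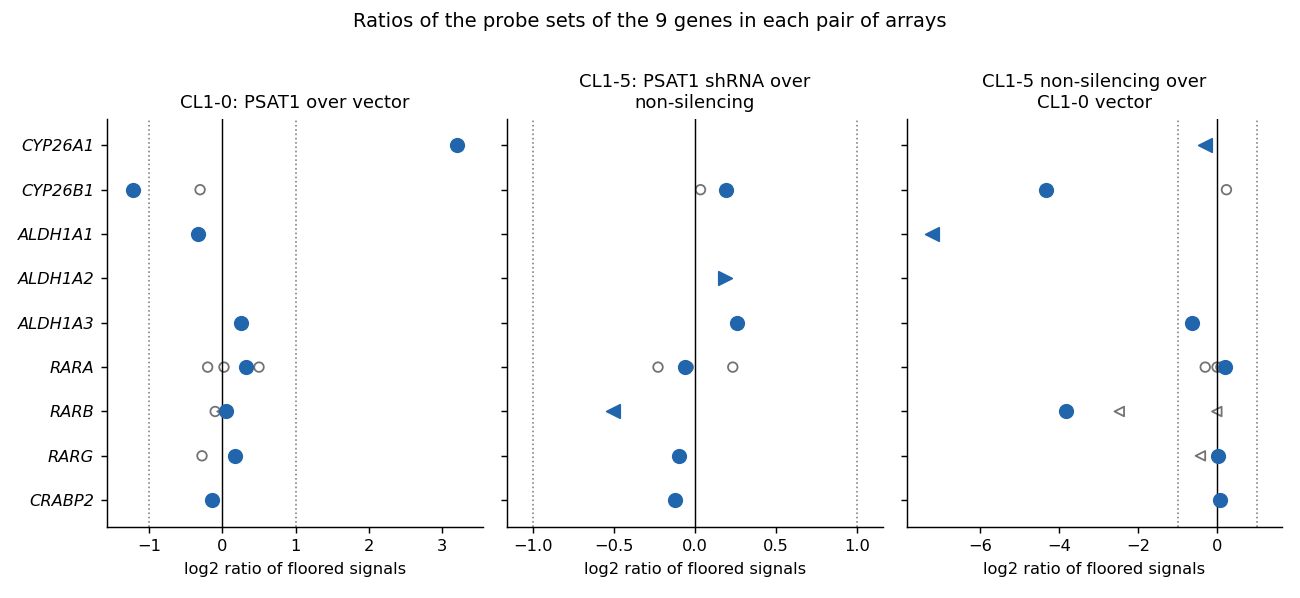
Log2 ratios of floored signals for the probe sets of the 9 genes in the 3 pairs of arrays (each panel has its own scale). Filled symbols are the representing probe set, open symbols the others, triangles are bounds with 1 array at the floor, and dotted lines mark 2-fold. CYP26A1 stands at 3.21 in the CL1-0 pair, no gene passes 2-fold in the CL1-5 pair, and ALDH1A1, CYP26B1 and RARB lie far to the left between the lines.

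In CL1-5 with the PSAT1 hairpin no member passed 2-fold, and CYP26A1 and ALDH1A1 were below the floor on both arrays. CYP26A1 read 21.8 with the hairpin and 21.0 with the non-silencing control. A mirror image of its rise in CL1-0 was therefore not measurable in CL1-5. CYP26B1 read 141 with the hairpin and 123 with the control (log2 ratio 0.19), and its second probe set 113 with the hairpin and 110.3 with the control. ALDH1A1 read 8.16 with the hairpin and 7.85 with the control. ALDH1A3 read 315 with the hairpin and 263 with the control (log2 ratio 0.26). That value is 1.20-fold, and 57 of its 500 neighbours in signal had a ratio as high.

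RARB had the largest difference of the members in CL1-5, on its representing probe set. It read 36.2 with the hairpin, below the floor, and 69.5 with the control, a gap of at least 1.42-fold (log2 ratio -0.50). Of the 500 genes nearest in signal 6 had a ratio as low. The other RARB probe sets were all below the floor on both CL1-5 arrays, so the difference rests on 1 dim probe set. ALDH1A2 was above the floor on 1 of the 4 arrays, the hairpin one, at 55.9 against 40.8 with the control (at least 1.14-fold). RARA, RARG and CRABP2 had log2 ratios of -0.06, -0.10 and -0.12. Among the RARA probe sets above the floor the ratios again had both signs, from -0.23 to 0.24.

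Of the 7 members measured in CL1-5, 0 passed 2-fold. Over all 12821 measured genes 0.819% did, 0.398% higher and 0.421% lower. With the control, RARB, RARG, RARA and ALDH1A2 read 69.5, 94.2, 97.3 and 40.8, less than 2 times the floor of 49.0. A 2-fold fall could not be called for them, so the count of 0 was partly set by the floor. The median log2 ratio was -0.06 over the members and 0.02 over all genes. Probe sets that share a gene disagreed with an SD of 0.17 here.

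**Figure D3:**
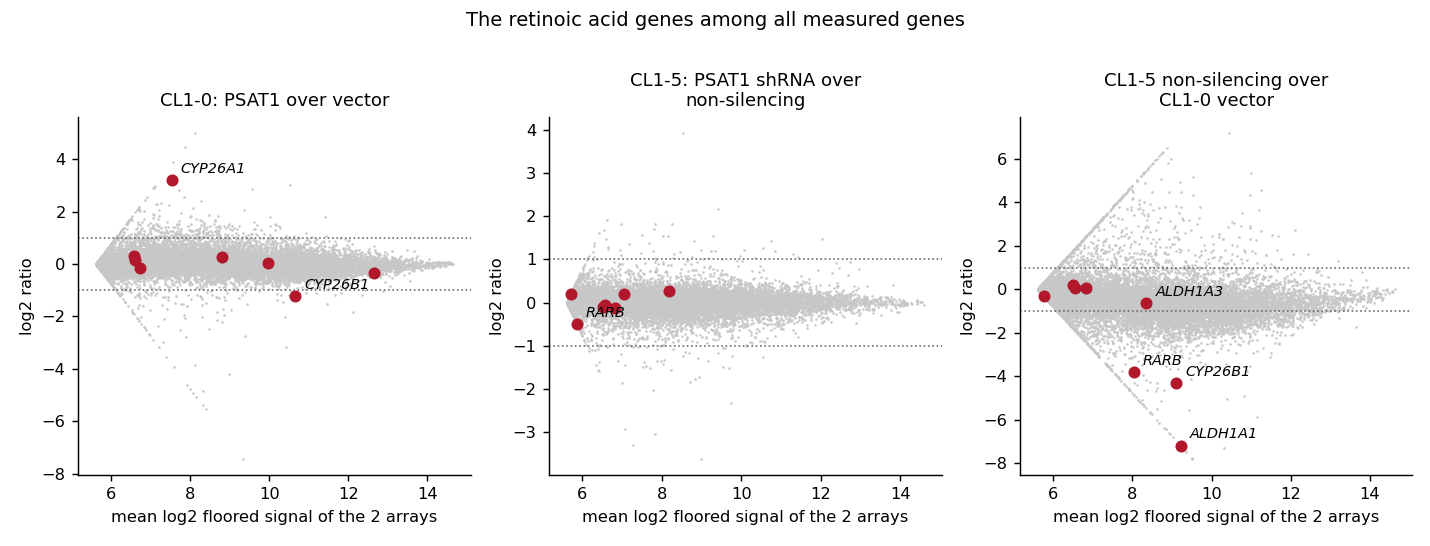
Log2 ratio against mean log2 floored signal of the 2 arrays for every measured gene (grey) and for the 9 genes (red), in the 3 pairs. Dotted lines mark 2-fold, and members with a log2 ratio beyond 0.45 are named. The oblique edges are genes with 1 array at the floor, and CYP26A1 in the CL1-0 pair and ALDH1A1 between the lines stand at the rim of the cloud.

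Between the control arrays of the lines, ALDH1A1, CYP26B1 and RARB were lower in CL1-5, and no member was higher. ALDH1A1 read 7.85 in CL1-5 non-silencing cells and 7219 in CL1-0 vector cells, at least 147-fold lower. This was the fifth lowest ratio of 13720 measured genes. CYP26B1 read 123 in CL1-5 and 2460.0 in CL1-0, 20.0-fold lower. The second CYP26B1 probe set did not show this, with 110.3 in CL1-5 and 93.5 in CL1-0 (log2 ratio 0.24). RARB read 69.5 in CL1-5 and 989.7 in CL1-0, 14.3-fold lower. Its second probe set read 20.8 in CL1-5 and 272 in CL1-0, at least 5.55-fold lower, and pointed the same way. Averaging the probe sets of a gene took the log2 ratio of CYP26B1 to -2.04, in place of -4.32, and that of RARB to -1.26, in place of -3.83.

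The remaining members were under 2-fold between the lines. ALDH1A3 read 263 in CL1-5 and 408 in CL1-0 (log2 ratio -0.63), which quantile normalization took to -0.01. RARA read 97.3 in CL1-5 and 84.8 in CL1-0, RARG 94.2 in CL1-5 and 92.0 in CL1-0, and CRABP2 118 in CL1-5 and 112 in CL1-0. After centring, their log2 ratios were 0.81 for RARA, 0.65 for RARG and 0.69 for CRABP2, and that of ALDH1A3 was -0.02. CYP26A1 read 21.0 in CL1-5 and 60.8 in CL1-0, a gap of at least 1.24-fold. With the floor at the 25th percentile its log2 ratio was -1.53, which passes 2-fold. The CL1-0 readings of CYP26A1, RARA and RARG were less than 2 times the main floor of 49.0. A 2-fold fall in CL1-5 could therefore not be called for them at that floor. The vectors of these arrays differ as well as the lines, so line and construct cannot be told apart here.

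The lines are not on one scale in these values. The median log2 ratio of all genes was -0.49 between the lines, 0.00 after quantile normalization and 0.09 after centring on the median. Of all 13720 genes 30.0% passed 2-fold, 5.25% higher and 24.8% lower in CL1-5. Among the 8 measured members 3 passed it (37.5%), with a median log2 ratio of -0.47, a share near that of all genes before any scaling. Of the 500 genes nearest in signal 0 were as low as ALDH1A1, 2 as low as CYP26B1 and 9 as low as RARB. After quantile normalization the log2 ratios were -6.93 for ALDH1A1, -3.71 for CYP26B1 and -3.33 for RARB, and 18.5% of all genes passed 2-fold, 51.6% of them higher. Before it, 17.5% of the 2-fold differences were higher. The same 3 of 8 members (37.5%) passed 2-fold after either scaling, beside 18.5% of all genes after quantile normalization and 18.9% after centring. Epithelial markers also differed between the lines, with KRT8 and KRT18 above the floor on all 4 arrays and the 5 markers summing to 6647 in CL1-5 and 899 in CL1-0. The 8 fibroblast markers summed to 495 in CL1-5 and 2933 in CL1-0, a gap carried mostly by POSTN. POSTN was at least 43.9-fold and COL3A1 at least 6.37-fold lower in CL1-5. COL1A1, THY1 and PDGFRB were under 2-fold (log2 ratios 0.13, 0.12 and -0.31, the last a bound). COL1A2, DCN and LUM were below the floor. Of 5 endothelial markers, PECAM1 was 2.15-fold higher in CL1-5, while CDH5 and KDR were below the floor on all 4 arrays. VWF read 50.8 in CL1-5 and 46.5 in CL1-0, and TEK 45.8 in CL1-5 and 54.0 in CL1-0, both under 2-fold. Their part in these values was not tested.

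Other genes of the retinoid pathway were read from a list of 39 genes for retinol uptake, storage, oxidation, receptor partners and coregulators. Of these, 31 had a named probe set and the other 8 were not analysed here. In CL1-0 with PSAT1, 0 of 16 measured genes passed 2-fold, with a median log2 ratio of 0.12. Over all genes of this pair the share was 3.56% and the median -0.01, so that a count of 0 is near the background. NCOA2, a coactivator of nuclear receptors, came closest, at 2172 with PSAT1 and 1087 with vector (log2 ratio 0.9987). Next came NRIP1, a corepressor that retinoic acid induces, at 231 with PSAT1 and 449 with vector (log2 ratio -0.96). In CL1-5 with the hairpin, 0 of 18 passed 2-fold, with a median of 0.01, beside 0.819% and 0.02 over all genes. This count too is near the background. FABP5, a fatty acid carrier that also binds retinoic acid, read 9584 with the hairpin and 8838 with the control in CL1-5, and 7118 with PSAT1 and 8976 with vector in CL1-0. RDH11, a retinal reductase, read 2338 with the hairpin and 2325 with the control, and 3366 with PSAT1 and 3572 with vector.

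Between the lines, 9 of 19 measured pathway genes passed 2-fold, 7 lower and 2 higher in CL1-5, with a median of -0.51. Over all genes the share was 30.0%, with 24.8% lower and 5.25% higher, and the median -0.49. RDH10, which oxidises retinol to retinal, read 405 in CL1-5 and 5772 in CL1-0, 14.3-fold lower. All 3 of its probe sets above the floor were lower, from 14.3-fold to 18.2-fold. RXRA, the main partner of the RARs, read 226 in CL1-5 and 1320.4 in CL1-0 (5.84-fold lower), while its second probe set read 121 in CL1-5 and 154 in CL1-0. RDH13, a mitochondrial retinol dehydrogenase, was 4.59-fold lower. STRA6, the membrane receptor that takes up retinol, read 53.1 in CL1-5 and 135 in CL1-0 and was 2.55-fold lower.

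The coactivators EP300, CREBBP and NCOA1 were 4.48-fold, 3.33-fold and 2.12-fold lower in CL1-5. NCOA1 was under 2-fold after either scaling and STRA6 after centring, and both, with CREBBP, when probe sets were averaged. RXRA, EP300 and STRA6 rest on probe sets that may match several transcripts. RBP7, a cellular retinol-binding protein, read 136 in CL1-5 and 46.3 in CL1-0, at least 2.78-fold higher. DHRS3, which reduces retinal back to retinol and is induced by retinoic acid, read 178 in CL1-5 and 71.4 in CL1-0, 2.50-fold higher. Both were under 2-fold with the floor at the 65th percentile. Quantile normalization left 8 of 18 past 2-fold (44.4%, beside 18.5% of all genes) and centring 7 of 18 (38.9%, beside 18.9% of all genes).

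Genes known to be induced by retinoic acid were read from a list of 22, of which 17 had a named probe set. STRA6, DHRS3 and NRIP1 are also in the pathway list. In CL1-0 with PSAT1, where CYP26A1 rose, 0 of 13 measured genes of this list passed 2-fold and the median log2 ratio was -0.02, beside 3.56% and -0.01 over all genes. At that share a count of 0 is near the background. Ratios were positive in 6 and negative in 7. FOXA1, a forkhead factor, lay just under 2-fold, at 109 with PSAT1 and 55.1 with vector (log2 ratio 0.98). MEIS2, a homeobox factor, read 1059 with PSAT1 and 559 with vector (log2 ratio 0.92). CDX1, an intestinal homeobox factor, read 82.6 with PSAT1 and 92.1 with vector. In CL1-5 with the hairpin 0 of 12 passed 2-fold, and the median was 0.06, beside 0.819% and 0.02 over all genes. That count is near the background as well.

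Between the lines, 7 of 15 passed 2-fold, 5 of them higher in CL1-5 and 2 lower, beside 30.0% of all genes, 5.25% higher and 24.8% lower. These shares carry the difference in scale between the lines. After quantile normalization the list again had 5 higher and 2 lower of 15, beside 18.5% of all genes, 51.6% of these higher. After centring 5 of 13 passed, 5 higher and 0 lower, beside 18.9% of all genes, 54.6% of these higher. ETS1, a transcription factor, read 1999.9 in CL1-5 and 27.8 in CL1-0, at least 40.8-fold higher. GPRC5A, a membrane receptor first found as a retinoic acid-induced gene, read 559 in CL1-5 and 21.0 in CL1-0, at least 11.4-fold higher. A second GPRC5A probe set was at least 10.8-fold higher. TGM2, tissue transglutaminase, read 283 in CL1-5 and 86.8 in CL1-0, 3.26-fold higher. NAV2, a cytoskeletal protein, was 2.61-fold higher, but was no longer past 2-fold when its probe sets were averaged or when those that may match several transcripts were left out. HOXB4, a homeobox factor, read 68.9 in CL1-5 and 208 in CL1-0, 3.02-fold lower, and with STRA6 it was under 2-fold after centring. The median of this list was -0.32, against -0.49 over all genes.

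**Figure D4:**
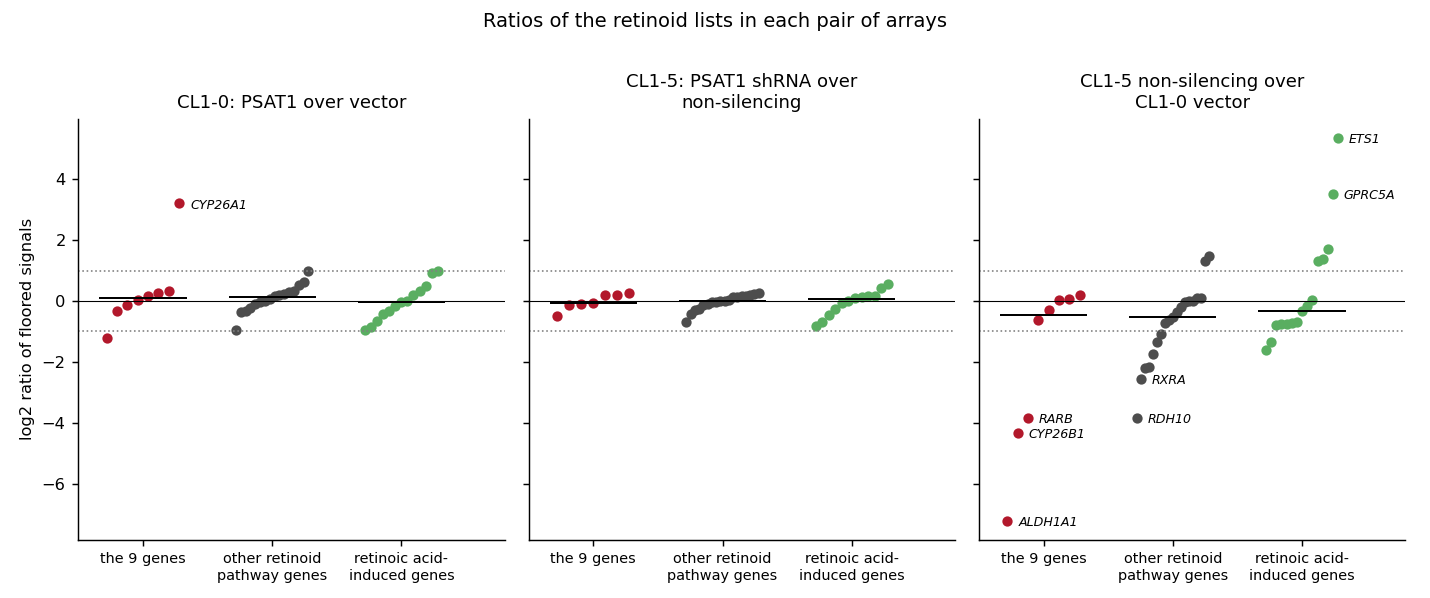
Log2 ratios of the 9 genes, the other retinoid pathway genes and the retinoic acid-induced genes in the 3 pairs of arrays, 1 point a measured gene in rising order and a black bar at the median. Dotted lines mark 2-fold. In the CL1-0 pair CYP26A1 stands alone above 2-fold, and between the lines RDH10 lies beside RARB and CYP26B1 while ETS1 and GPRC5A lie above 2-fold.

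The members that spanned 2-fold or more over the 4 arrays were CYP26A1, CYP26B1, ALDH1A1 and RARB. For each, the 3 genes with the closest profile were taken from 9133 others, by the root mean square distance between floored log2 signals centred on each gene's mean. With 4 arrays, 2 of each line, such a likeness mostly repeats the difference between the lines. Closest to CYP26A1 were FREM2 (distance 0.17), MATN2 (0.25) and APELA (0.25). FREM2 read 558 with PSAT1 and 79.1 with vector in CL1-0, and was below the floor on both CL1-5 arrays. MATN2 and APELA were below the floor on the CL1-5 arrays and also on the CL1-0 vector array, at 22.8 and 33.2 there. Closest to CYP26B1 were HS6ST2 (0.17), ANKRD1 (0.18) and DIRAS2 (0.21). Closest to ALDH1A1 were SPP1 (0.27), SOX2 (0.29) and ARID5B (0.31). Closest to RARB were IRX2 (0.18), RDH10 (0.18) and SYDE2 (0.20), so that the retinol dehydrogenase of the pathway list was the second nearest of 9133 genes. RDH10 read 5661 with PSAT1 and 5772 with vector in CL1-0, and 375 with the hairpin and 405 with the control in CL1-5. HS6ST2, DIRAS2, SPP1, SOX2, ARID5B, IRX2 and SYDE2 were below the floor on both CL1-5 arrays, so their distances rest partly on the floor.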

How the data were processed

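Total RNA (6 ug per sample, per the labels) of 4 cell cultures was read on 1 array each, and the deposited intensity of each probe set, on a linear scale, was made by the authors with MAS5, per the submitters' processing notes. Its version, scaling target and detection calls are not given in the sources used here. The table held 54675 probe sets, 62 of them controls. Exactly the same value stood on both CL1-0 arrays for 1260 probe sets and on both CL1-5 arrays for 1749. Between the control arrays of the lines the number was 0. The reason is not known here, and its bearing on the ratios was not tested. The annotation gave 1 gene to 41097 probe sets, several to 1801 and none to 11777. Of those with 1 gene, 41043 were found in RefSeq (GRCh38.p14) by gene identifier and took the symbol given there, changed or not. A further step left out 59 of chromosome Y or X inactivation. Where a gene had several probe sets, the one brightest on average over the arrays, after the floor and log2, stood for it. Python 3.11.15, numpy 2.4.6 and pandas 2.3.3 were used. The calls were also tried on simulated arrays with less spread than the real pairs. Changes well past 2-fold were planted there, in genes well above the floor. That trial does not bear on calls near 2-fold or near the floor. With 1 array per group no test, p-value or standard error exists, and the number of arrays limits the precision. The SD between probe sets of a gene stands beside ratios and does not replace a replicate.

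The alternatives were 2 scalings, floors at the 25th and 65th percentiles, the mean over probe sets and leaving out probe sets that may match several transcripts. Named genes were all members, every list gene past 2-fold, the 3 brightest others of each list, and the 3 nearest profiles among genes reaching the 75th percentile. The members and lists were chosen with earlier results of these data known. Marker genes outside this rule, and FOXA1, were named after their values were seen.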

Additional observations from a re-analysis of the deposited data

How the results depend on the processing

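Among the members, no log2 ratio past 2-fold changed sign under any of the 6 alternatives, and CYP26A1 in CL1-0 kept a ratio between 2.47 and 3.21. Of 126 member values recomputed, 106 moved by less than the SD between probe sets of a gene and 20 by more. This tally leaves out members that an alternative left unmeasured, and those measured under an alternative only. With the floor at the 65th percentile, 3 members were measured in the CL1-5 pair in place of 7. Between the lines 5 were measured at that floor in place of 8. Averaging the probe sets of a gene left 1 member past 2-fold in the CL1-0 pair in place of 2, and 245 of all genes in place of 470. Among the other pathway genes of the CL1-0 pair, where none passed otherwise, quantile normalization gave 2 (NCOA2 higher, NRIP1 lower) and centring 1 (NRIP1). Among retinoic acid-induced genes of that pair, quantile normalization and centring each gave 1 (NRIP1), and the 25th percentile floor 1 (PLAAT4, lower). Between the lines, 2529 of all genes passed 2-fold after quantile normalization and 2626 after centring, in place of 4122, and 51.6% and 54.6% of these were higher, in place of 17.5%. In all other counts the alternatives stayed within 1.5 times. No paired analysis was possible because each group has 1 array and no replicate number, and for the same reason no array could be left out. Values below the floor carry no order, which covers CYP26A1 and ALDH1A1 in CL1-5 and ALDH1A2 in CL1-0.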

Other observations

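Besides CYP26A1 and RARB, 27 genes had a DR5 in one of their promoter windows. Of these, 6 were measured in the CL1-0 pair and 7 in the CL1-5 pair, and 0 passed 2-fold in either, beside 3.56% and 0.819% of all genes, so that the count is near the background. Their median log2 ratios were -0.06 in the CL1-0 pair and 0.08 in the CL1-5 pair. Between the lines 3 of 7 measured ones passed 2-fold, CYB5R2 higher in CL1-5 and ATXN1L and PHF8 lower, which were named after their values were seen. Over all genes the share was 30.0%.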
